A study of Mus musculus with 24 samples.

Results

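Mt1 and Trf are the 2 genes described here, out of 82 genes listed in the deposited tables of a study of Smarcad1 in the mouse intestinal epithelium. They were chosen by their presence in those tables, which hold genes that the authors' own KO against WT comparison placed under an FDR limit of 0.1. Mt1 was in all 4 tables and Trf was in the colonocyte table only. The KO minus WT values of both genes are therefore a description of what selected them, and no test was made on them.

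The mRNA of 24 samples was sequenced, in 8 groups of 3. KO mice carried a Villin-cre transgene and a Smarcad1 allele with loxP sites around some of its exons, so that Smarcad1, an ATP-dependent chromatin remodeller, was removed in intestinal epithelial cells, and the allele came from a single line. WT mice and KO mice were male C57BL/6 animals, and the stem and transit amplifying cells of both came from mice that also carried an Lgr5-GFP reporter. The age of the animals is not given in the sources used here. The sorted populations were small intestinal stem cells (ISC, high GFP), transit amplifying cells (TA, medium GFP), absorptive enterocytes (AE) and colonocytes (CO). The last 2 populations were sorted for high Epcam without CD31 and CD45. No marker of a single epithelial cell type was used in that sort, and the paper calls them adult enterocytes and colon epithelial cells. The labels gave sorts of as few as 1000 cells for ISC and TA, against at least 75000 cells for AE and CO.

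Every level below is the authors' mean over a group, given as log2 of reads normalised to total reads, and every difference is KO minus WT on that scale, so that 1 unit is a 2-fold change. The tables analysed here hold no values for single samples, so the means have no error here. The depth of the samples is unknown for the same reason. The targeted gene Smarcad1 was lower in KO by 0.60 to 0.88 units in the 4 cell types, which left 54.4% to 66.0% of the WT level over the whole gene. Reads from exons outside the loxP sites are part of that level, so it does not measure how complete the deletion was. Of 40 marker genes of epithelial, immune and vessel cells, 3 were in the tables. Ascl2, a transcription factor of intestinal stem cells, was at 6.05 in WT ISC, 4.24 in WT TA and -0.18 in WT AE, which is the order that the sort labels give. In CO it was at 4.92 in KO and 3.84 in WT. No gene of the short marker lists for enterocytes, colonocytes, goblet cells, leukocytes and endothelial cells was listed. Genes outside those lists bear on the same point and were picked after their values were seen. Slc6a19, an amino acid transporter gene of enterocytes, was at 9.43 in WT AE, -0.81 in WT CO and 1.62 in KO CO. Most listed genes with a higher WT mean in AE than in CO were instead lower in KO CO than in WT CO. The median difference of all 82 listed genes in CO was itself -0.81, so nothing is read from this direction. Apob differed there by -0.88, Cdhr2 by -0.86, Ces2e by -1.53, Mep1a by -1.27, Erich4 by -3.34 and H2-Q1 by -3.57. Besides Slc6a19, the exceptions were AC151971.2, Aplp1, Clca4b, Itln1, Lyz1, Rtn4r and Slc1a3. Cd244, a receptor gene of lymphocytes, was at 2.97 in KO and -0.56 in WT of ISC and at 1.57 in KO and -1.82 in WT of TA, and it was at the lowest value of both CO groups. Ptpn22, a phosphatase gene of lymphocytes, was at 1.40 in KO and -0.13 in WT of ISC and at 0.69 in both genotypes of TA. In AE it was at 3.59 in KO and 2.43 in WT, and it shared the lowest value of both CO groups.

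Metallothioneins are small cysteine-rich proteins that hold zinc and copper ions in clusters and also react with oxidants. Their genes are switched on by metals through MTF-1, a zinc-sensing transcription factor that binds short metal response elements, and also by glucocorticoids and inflammatory signals. Transferrin, the product of Trf, is the iron carrier of blood plasma. The liver secretes most of it, and cells take up its iron through the transferrin receptor, which intestinal epithelial cells carry on their basolateral side.

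Mt1 (metallothionein 1, ENSMUSG00000031765) is a plus-strand gene of chromosome 8 that spans bases 94179082 to 94180327 in GRCm38, and its main transcript in GENCODE M21 has 3 exons. The coding sequence of that transcript is shown because it carries the metal-binding property of the protein in plain sight. The cysteine codons, whose side chains hold the metal, are in capitals.

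Mt1 coding sequence: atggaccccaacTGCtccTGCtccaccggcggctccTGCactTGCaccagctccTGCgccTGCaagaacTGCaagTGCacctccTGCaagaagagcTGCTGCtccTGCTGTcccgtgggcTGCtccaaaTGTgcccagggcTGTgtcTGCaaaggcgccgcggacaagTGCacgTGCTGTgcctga

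Of its 61 codons before the stop, 20 encode cysteine, which is 32.8%. The median over 21509 protein-coding genes was 2.12%, and 50 of those genes were at or above the share of Mt1. The coding sequence of Mt2, the neighbouring metallothionein gene, has the same length and also 20 cysteine codons, and 148 of 186 bases are the same at the same place. No stretch of 50 bases, the read length of the study, was shared between the annotated transcripts of Mt1 and those of any other gene, out of 1292 such stretches. The reads behind the Mt1 values could therefore be told from Mt2 reads when they matched the reference without mismatches.

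The bases before the annotated start of Mt1 are shown next, because metal response elements act there. The stretch is chr8:94178839-94179078 on the plus strand of GRCm38.p6, from 250 to 11 bases before the RefSeq start. Capitals mark the metal response element core, searched as TGCGCNC or TGCACNC on both strands.

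Mt1 upstream sequence: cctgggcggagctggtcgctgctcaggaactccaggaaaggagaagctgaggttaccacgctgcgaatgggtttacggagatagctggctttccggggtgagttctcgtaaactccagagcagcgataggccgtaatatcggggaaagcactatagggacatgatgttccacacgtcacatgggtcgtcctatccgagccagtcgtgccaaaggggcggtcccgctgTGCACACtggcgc

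Another 2 cores follow within the first 50 bases after that start, in a site of 25 bases at chr8:94179091-94179115.

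Mt1 site past the RefSeq start: TGCACTCcgcccgaaaagTGCGCTC

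The 3 annotated Mt1 transcripts in GENCODE M21 start at 94179082, 94179211 and 94179241, so both of these cores lie inside the first exon of the transcript that starts first and upstream of the other starts. Over the window of 300 bases that the RefSeq promoter table gives for each start, Mt1 held 3 cores. Its window ends before the later Mt1 starts, and the bases between were not searched. At least 1 core was present in 25.7% of 32817 such windows, and at least 3 in 1.97%. The windows of the other metallothionein genes held 4 cores for Mt2 and 1 each for Mt3 and Mt4. Of the listed genes, 62 had a window, 19 of them held a core, and Mt1 alone had 3. A match of letters is a description of the sequence and no evidence of binding.

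Mt1 was higher in KO in all 4 cell types. Among stem cells the KO level was 7.82 and the WT level 6.29, and in TA the levels were 7.63 in KO and 6.27 in WT. AE had 8.56 in KO and 5.33 in WT, and CO had 8.47 in KO and 6.46 in WT. The lowest KO mean was thus above the highest WT mean. The difference was 1.53 in ISC (2.89 times WT) and 1.36 in TA (2.56 times WT). It was larger in CO with 2.01 (4.01 times WT) and largest of the 4 in AE with 3.23 (9.38 times WT). Of the 82 listed genes, 15 were higher in KO in all 4 cell types and 4 were higher by at least 1 unit in all 4. Besides Mt1 these 4 were Lyz1, Bglap3 and AC151971.2.

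Trf (transferrin, ENSMUSG00000032554) is a minus-strand gene of chromosome 9 that spans bases 103204001 to 103230444 in GRCm38. Its level was 4.54 in KO CO against 3.41 in WT CO, which is a difference of 1.13 and a KO level of 2.19 times WT. In the small intestinal populations, whose tables do not list the gene, the KO and WT levels were 3.34 and 3.25 for ISC, 2.19 and 1.79 for TA, and 2.42 and 2.68 for AE. These differences were 0.09, 0.40 and -0.26. The stem cell marker Ascl2 differed by 1.08 in CO, and the part of a change in cell makeup in the CO values of Trf and Mt1 was not tested. The KO mean of Trf was above its WT mean in 3 of the 4 cell types and below it in AE, and whether the differences of the cell types differ from each other was not tested.

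**Figure D1:**
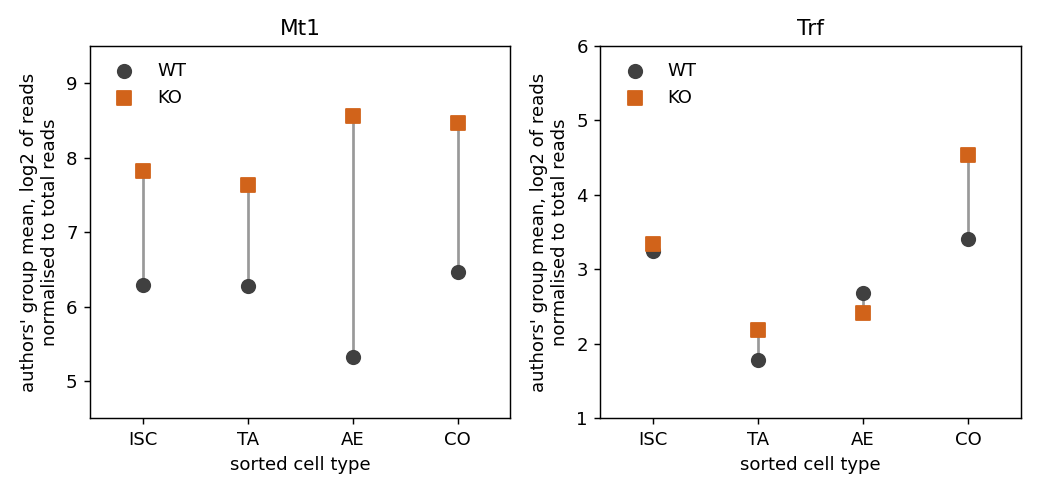
Levels of Mt1 (left) and Trf (right) in the 4 sorted cell types, as group means by the authors (log2 scale). Circles are WT, squares are KO, grey lines join the groups of a cell type, and there are no error bars because the means came without them. Mt1 in KO lay between 7.63 and 8.56, above every WT mean, whereas the WT and KO means of Trf lay furthest apart in CO.

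Both members had to be read against the other listed genes, which were selected in the same way. Of the 82 genes, 26.8% were at least 1 unit higher in KO among ISC, 17.1% among TA, and 15.9% among AE and likewise 15.9% among CO. Mt1 was among these genes in all 4 cell types and Trf in CO only. Both were chosen on the same contrast, so nothing is read from their own places. Ordered by the KO minus WT difference, Mt1 stood at place 3 of 82 in AE, 8 in CO, 12 in TA and 14 in ISC. Trf stood at place 12 in CO, 29 in TA, 56 in AE and 58 in ISC. In AE, the genes above Mt1 were Bglap3, an osteocalcin-related gene, which was at 0.99 in WT and 6.17 in KO, and Tlr4, the receptor for bacterial lipopolysaccharide, which was at -4.25 in WT and -0.95 in KO. The WT level of Mt1 in AE was 10.5 units above the lowest value of that group. The 82 genes had a median difference of -0.81 for CO, -0.11 for AE, 0.18 for TA and 0.41 for ISC. Relative to that median, Mt1 was higher by 2.82, 3.34, 1.18 and 1.12 units in the same order. For Trf the values relative to the median were 1.94, -0.15, 0.22 and -0.32, so the small positive difference in ISC changed sign. The median is no neutral baseline, since the genes were selected on these same contrasts. Of the 82 genes, 56 were listed for CO and 7 for ISC.

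**Figure D2:**
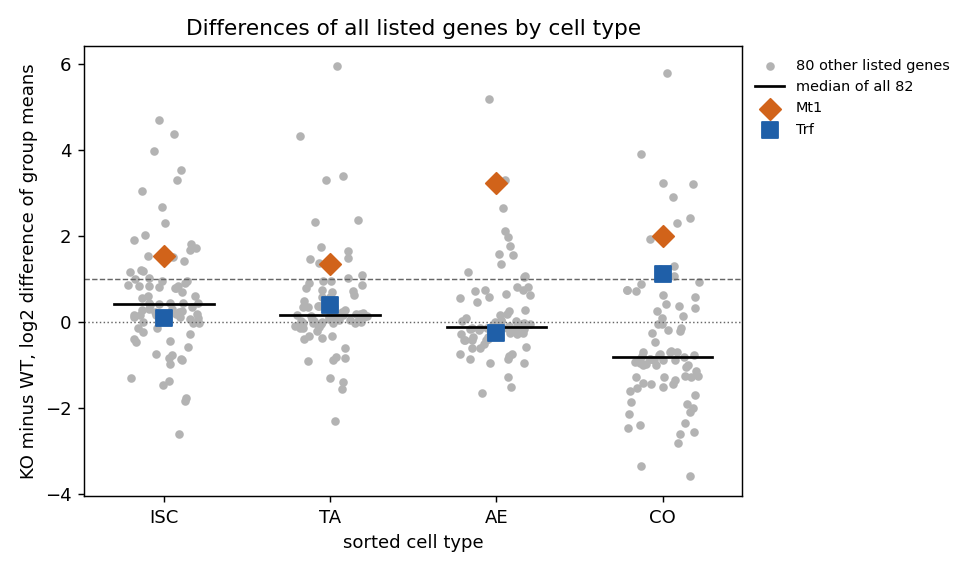
KO minus WT differences of the 82 listed genes in each cell type, in log2 units, with 1 point per gene. Diamonds are Mt1, blue squares are Trf, black bars are the medians, the dotted line is at 0 and the dashed line at 1. Mt1 was above the dashed line in all 4 cell types and Trf in CO only, where the median lay at -0.81.

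The Mt1 differences can be split into WT and KO levels. In WT, the order of Mt1 levels was CO, ISC, TA and AE, and ISC and TA were only 0.02 units apart. In KO, the order was AE, CO, ISC and TA, and AE and CO were 0.09 units apart. AE was thus the lowest of the WT means and the highest of the KO means. The difference in AE exceeded that in ISC by 1.70 units, of which 0.96 came from the lower WT level and 0.74 from the higher KO level. The difference in CO exceeded that in ISC by 0.47 units, with a KO level that was 0.64 higher and a WT level that was 0.17 higher. No neighbours in these orders can be said to differ, since the spread between samples is not in the tables.

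Along the small intestinal sequence from TA to AE, Mt1 was 0.94 units lower in AE in WT and 0.93 units higher in AE in KO. Of the 82 listed genes, 9 had TA to AE steps of opposite sign in the genotypes. With a limit of 0.5 units in each genotype, chosen after the values were seen, 2 genes remained. Mt1 was the gene with a negative step in WT and a positive step in KO, and Cd244 had the opposite pattern. These steps compare group means only and have no test.

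**Figure D3:**
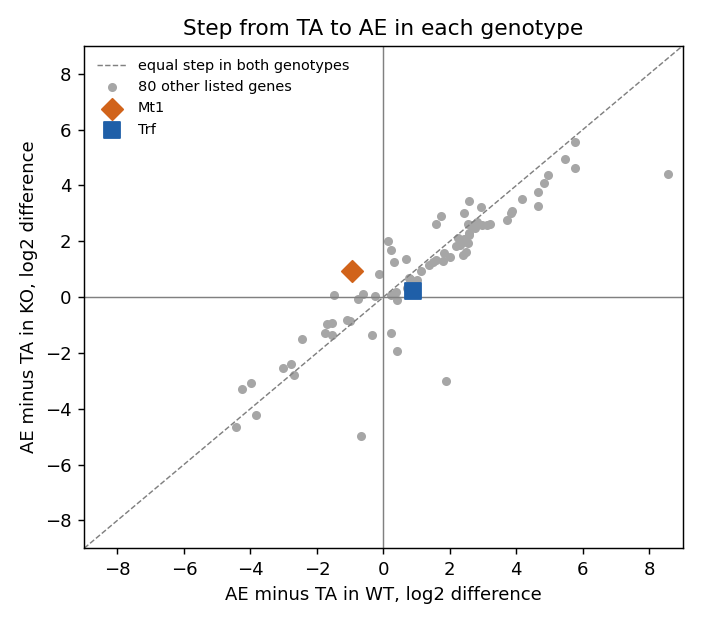
Step from TA to AE (AE minus TA, log2 units) in WT on the horizontal axis and in KO on the vertical axis for the 82 listed genes. The dashed line marks equal steps. Mt1 (diamond) lies at the upper left at -0.94 and 0.93, and Trf (square) lies at the upper right at 0.89 and 0.23.

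Trf kept the same order of levels in both genotypes, which was CO, ISC, AE and TA. The highest and lowest WT means were 1.62 units apart, or 3.08-fold, and the KO means were 2.35 units apart, or 5.10-fold. In WT the CO level was close to that of ISC, 0.16 units above it, and in KO it was 1.20 units above it. The KO minus WT difference of CO exceeded that of ISC by 1.04 units. CO against AE was a gap of 0.73 units in WT and 2.12 units in KO.

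The position of Trf bears on what its value counts. The Gm20425 gene model (ENSMUSG00000090639) lies on the same strand from 103190208 to 103230307, and joins exons of Trf to exons of the downstream gene Srprb, which encodes a subunit of the receptor for the signal recognition particle. It covers 16 of the 17 exons of the main Trf transcript and 2108 of its 2571 bases, which is 82.0%. Of the 3441 different 50-base stretches in Trf transcripts, 58.5% were also in Gm20425. The table's adjacent feature column for the Trf row named Gm20425. Reads in those exons cannot be assigned to Trf rather than Gm20425, and strand cannot separate them. Neither Gm20425 nor Srprb, which begins 1864 bases downstream of Trf, was listed.

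**Figure D4:**
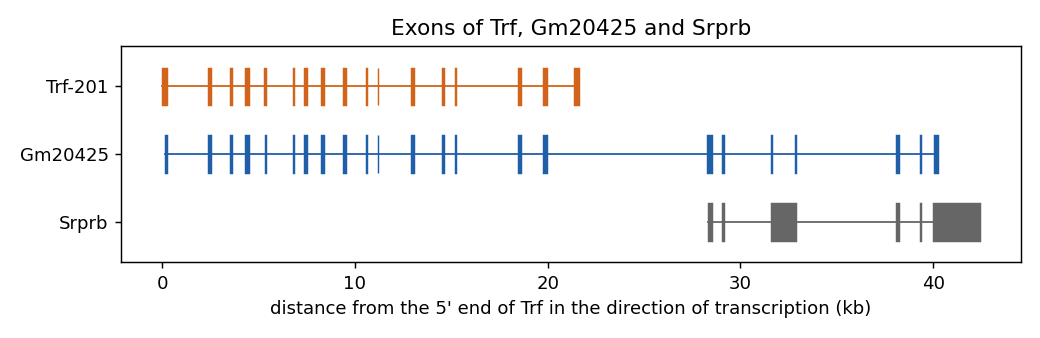
Exons (boxes) of the main Trf transcript, Gm20425 and Srprb, drawn to scale by distance in kb from the 5′ end of Trf in the direction of transcription. The boxes of Gm20425 lie under 16 of the 17 Trf exons and then over exons of Srprb.

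Per kilobase of annotated exon, the Mt1 level was above the Trf level in all 8 groups. With the merged exons of each gene, 1246 bases for Mt1 and 3320 for Trf, Mt1 was 21.9 times Trf in WT ISC, 59.7 times in WT TA, 16.7 times in WT AE and 22.05 times in WT CO. In KO the ratio was lowest in CO with 40.5, followed by ISC with 59.7, TA with 116 and AE with 188. The merged exons of Mt1 include a transcript that runs through its introns, and with the main transcripts alone the ratios ran from 29.4 to 330.4.

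Other metal genes were looked up from lists of metallothionein, zinc, iron, copper and calcium genes. Of 67 genes in the lists, 3 were in the tables. These were Mt1 from 4 metallothioneins, Trf from 22 iron genes and Bglap3 from 11 calcium genes. None of the 23 zinc transporters and regulators, which included Mtf1 and Slc30a1, and none of the 7 copper genes were listed. The transferrin receptor genes Tfrc and Tfr2, the iron exporter gene Slc40a1 and the ferritin genes Fth1 and Ftl1 were not listed either. A gene that is not listed has no value here in any group, so these counts do not say that it was unchanged. Close to Mt1, Mt2 ends 5514 bases upstream, Gm45774 is annotated antisense to it and Gm39228 lies 2962 bases downstream, and none of these neighbours was listed.

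The genes most like Mt1 over the 8 group means were Bglap3 with a Pearson's r of 0.79, AC151971.2 with 0.73 and Bambi with 0.69. Bambi encodes a pseudoreceptor of the TGF-beta and BMP pathways. Bglap3 was at 6.17 in KO AE against 0.99 in WT AE and, like Mt1, had its highest KO mean in AE. Bambi differed from Mt1 in AE, where its KO minus WT difference was 0.26. The genes most like Trf were Mctp1, which encodes a calcium-binding membrane protein, with r of 0.83, Tlr4 with 0.82 and Slc1a4, a neutral amino acid transporter gene, with 0.77. All of these had their highest mean in CO in both genotypes. Mctp1 and Tlr4 had values down to -5.17 and -4.57, near the lowest values of the tables, so their r rests partly on groups with few reads. Bglap3 had a value down to -2.87, in WT TA. Mt1 and Trf themselves had an r of 0.30. These values are descriptions over 8 points that share samples and normalisation. All 82 genes were also selected on KO against WT contrasts of these data, so nothing is read from which genes came nearest.

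**Figure D5:**
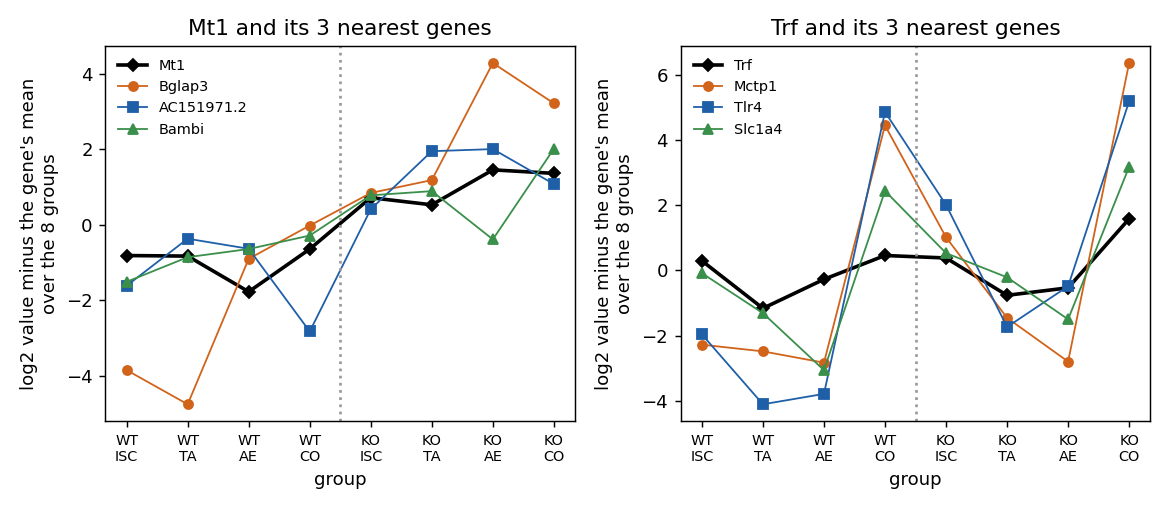
Group means of Mt1 (left) and Trf (right) with the 3 genes of highest Pearson's r to each, after subtraction of each gene's mean over the 8 groups, in log2 units. Lines join the points of a gene, and a dotted line separates WT from KO. In the Mt1 panel each gene is higher in KO within every cell type, Bambi by only 0.26 units in AE. The Trf panel peaks in CO of both genotypes.

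Lyz1 and Itln1 were the listed genes among 7 Paneth cell markers, and none of the 6 goblet cell markers was listed. Spink4, a goblet cell gene outside that list, was picked after its values were seen. It differed by 0.26 units in CO, 0.71 in AE, -0.01 in TA and 0.92 in ISC. Lyz1, the Paneth cell lysozyme, differed by 3.20 units in CO, 2.11 in AE, 1.64 in TA and 1.20 in ISC. Itln1, an intestinal lectin, differed by 0.64, 1.76, 1.38 and 1.72 in the same order. Like Mt1, both were therefore higher in KO in all 4 cell types. Their summed level ran from 1.03 in WT CO to 10.4 in WT ISC and from 3.37 in KO CO to 11.8 in KO ISC. The WT mean of Mt1 in CO was above that in ISC by 0.17 units. In bulk samples, more cells of a type and more RNA per cell cannot be told apart, and the part of Paneth cell RNA in the Mt1 values was not tested. The part of lymphocyte RNA in the ISC and TA values of Mt1 was not tested either, beside Cd244 differences of 3.53 and 3.39. In AE, where Mt1 differed by 3.23, Cd244 differed by -1.50 and Ptpn22 by 1.16. The differences of Ptpn22 were 1.53 in ISC and -0.003 in TA, so these 2 genes did not move alike.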

How the data were processed

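Epithelial populations were sorted and poly(A) RNA was sequenced as single reads of 50 bp. Per the labels, the authors used Trim Galore 0.4.4, HISAT2 2.1.0 on GRCm38 and DESeq2. Reads were counted in SeqMonk over exons with isoforms merged. Whether counting used strand is not stated. The deposited tables hold 7 (ISC), 15 (TA), 20 (AE) and 56 (CO) genes under the authors' FDR limit of 0.1. The FDR column is the authors' adjusted p-value and was not used. The deposited log2 values are the authors' group means of reads normalised to total reads. They were not divided by length, because in both AE groups genes with merged exons of 1987 to 14808 bases shared the same lowest value. Genes in several tables had identical values.

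No test was possible on group means. Differences, ranks, shares and Pearson's r were computed with Python 3.11.15, numpy 2.4.6 and pandas 2.3.3, figures with matplotlib 3.10.9, and the functions were tested on simulated data. The annotation was GENCODE M21, and sequences came from its transcripts and from RefSeq (GRCm38.p6). RefSeq gave a promoter window for 62 of 82 listed genes. Genes were named by rule: both members, Smarcad1, the 3 highest r to each member, listed genes of the metal lists, Lyz1, Itln1, and genes within 10000 bp. Tfrc and other unlisted metal genes are named as list entries, and Ascl2 as the listed stem cell marker. The members and lists were chosen with earlier results of these data known. Alternatives were a pseudocount of 1, linear values of at least 0.1, centring on the median, other limits, other measures of likeness, other exon lengths and at least 2 motif matches.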

Additional observations from a re-analysis of the deposited data

How the results depend on the processing

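No paired analysis was possible because the tables used here hold group means only, and for the same reason no sample could be left out. A pseudocount of 1 and linear values of at least 0.1 moved no difference of Mt1 or Trf by 0.1 units or more, and changed no sign. Centring on the median of listed genes gave Mt1 2.82 for CO, 3.34 for AE, 1.18 for TA and 1.12 for ISC, and Trf 1.94, -0.15, 0.22 and -0.32. Only the sign of Trf in ISC changed, against a median that depends on how the genes were selected. The counts of listed genes higher in KO by 1 unit, 22, 14, 13 and 13 in ISC, TA, AE and CO, became 36, 25, 22 and 20 at a limit of 0.5 and 9, 6, 5 and 8 at a limit of 2. With a pseudocount the ISC count was 13. Without the genes that the same table lists, the counts were 6 for TA, 3 for AE and 1 for CO. Of the 3 genes nearest to Mt1, 1 was kept by the root mean square difference and 1 among genes at 0 or above in all groups. Bglap3, nearest to Mt1 by r, stood at place 49 by the root mean square difference. Of the genes nearest to Trf, 0 were kept by Spearman's rho (Tlr4 tied with the first 3 at 0.81). The root mean square difference kept 0 of them, and 1 was kept among genes at 0 or above. The likeness to Mt1 and the likeness to Trf thus both depend on the measure. The median log2 difference between Mt1 and Trf per kilobase was 5.62 with merged exons, 5.45 with the longest transcripts and 6.43 with the principal transcripts, the last chosen after seeing the data. At least 2 motif matches were found in 7.12% of windows. With means alone, no difference of the small sizes seen for Trf in ISC, TA and AE can be told from sampling error.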
